A study of Danio rerio with 2 samples.

Results

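The keratin genes described here were taken by symbol from the authors' comparison of Ensembl genes and joined by identifier to the gene counts. Of 10 symbols sought, 9 had a row among the 26126 listed genes, namely krt4, krt5, krt8, krt15, krt17, krt18, cyt1, cyt1l and krt1-19d, and cki had none. The samples were labelled as hearts of AB zebrafish at 48 hours post fertilization, 1 library from wild-type animals and 1 from kctd10 -/- animals, which carry a mutation in the gene of a Cullin 3 ubiquitin ligase adaptor. The sources used here do not give the kind of kctd10 allele, the number of hearts behind each library or any skin left on the hearts.

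Keratins are the intermediate filament proteins of epithelia, and a filament forms only when an acidic chain, type I, pairs with a basic chain, type II. In mammals each epithelium uses its own pairs: keratins 8 and 18 in simple epithelia, keratins 5 and 15 among those of the basal skin layer, and keratin 17 in skin appendages and wounded skin. The skin of the zebrafish larva has an outer sheet, the periderm, descended from the enveloping layer of the early embryo, above a basal layer that holds the stem cells. In zebrafish the krt4 promoter is used to mark the skin surface, and the authors' table describes cyt1 and cyt1l as the type I cytokeratins of the enveloping layer. The heart muscle itself is no keratin-rich tissue.

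The wild-type-labelled library held 150001992 gene counts and the mutant-labelled library 139099775. kctd10 had 8226 and 19942 counts in the same order, a ratio of 2.57, so the amount of its transcript gives no sign of a loss in the mutant-labelled library. Since each genotype has 1 library, no test between genotypes was possible, no p-value was computed, and each ratio compares these libraries only. A ratio divides the level in the mutant-labelled library by the level in the wild-type-labelled library after TMM scaling, with an exact 95% interval that covers counting error only. A gene with at least 10 counts is called higher or lower when its whole interval lies beyond 1.5-fold. By that rule 6.03% of 24009 genes were higher and 6.66% lower, and among the 5427 genes with at least 10000 counts 4.75% were higher and 3.89% lower.

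The keratins made up a large share of both heart libraries, and it was smaller in the mutant-labelled library. The 9 genes together took 6945167 counts, 4.63% of the total (exact binomial 95% interval 4.627 to 4.633), in the wild-type-labelled library. They took 4738825 counts, 3.41% (3.404 to 3.410), in the mutant-labelled library, a summed ratio of 0.723 (0.722 to 0.724). Most of this sum was krt4, and without it the shares were 1.63% and 1.27%, with a ratio of 0.764. In a whole tissue sample, fewer keratin-making cells and less keratin RNA per cell cannot be told apart. Of the 9 genes, krt18 and krt1-19d (22.2%, against 6.03% of all genes) were higher and krt5 and krt15 (22.2%, against 6.66%) lower, while the other 5 met neither condition. The median log2 ratio of the 9 was −0.51, with a range from −1.17 to 1.13, against 0.00083 over all measured genes.

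**Figure D1:**
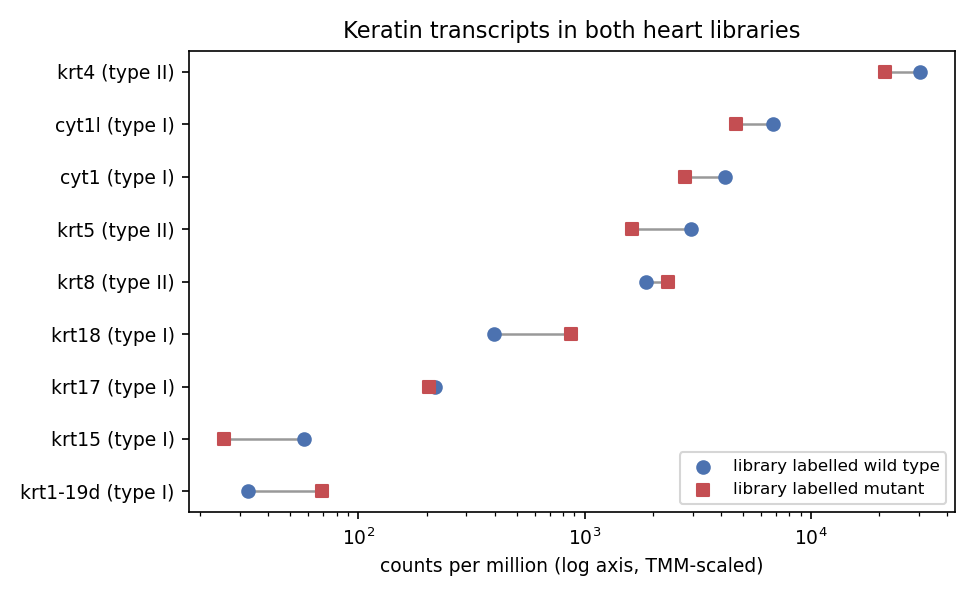
Levels, as counts scaled to library size (CPM), of the 9 keratin genes in the wild-type-labelled library (circles) and the mutant-labelled library (squares), on a log axis, 1 row per gene with its keratin type. The values are not scaled to transcript length and should be compared along a row: krt18, krt1-19d and krt8 lie to the right in the mutant-labelled library, and the other 6 lie to the left. The sides of krt8 and krt17 depend on the scaling, since krt8 has a log2 ratio of −0.067 when scaled to the cardiac sarcomere list and krt17 one of 0.048 when scaled to the epidermis lists.

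The keratins of the skin surface had nearly the same ratio, and none reached the 1.5-fold limit. krt4 (ENSDARG00000017624), a type II keratin, had 4500426 counts in the wild-type-labelled library and 2975239 in the mutant-labelled library, more counts than any other gene in either. That corresponds to 30271 and 21200 CPM (counts scaled by TMM library size to parts in 1e6) and a ratio of 0.700 (0.699 to 0.701). The ratio of the type I gene cyt1l (ENSDARG00000036832) was 0.686 (0.684 to 0.688), from 1009167 and 653676 counts. That of its relative cyt1 (ENSDARG00000092947) was 0.670 (0.667 to 0.672), from 617362 and 390237 counts. The interval of cyt1 ran from 1.487-fold to 1.499-fold lower, so the whole of it lay just short of the limit. These 3 genes kept nearly fixed proportions: there were 4.46 krt4 counts for each cyt1l count in the wild-type-labelled library and 4.55 in the mutant-labelled library. The proportion of cyt1 to cyt1l was 0.612 and 0.597. Such proportions are taken within a library and do not depend on how the libraries are scaled. The counts of cyt1 and cyt1l are uncertain singly, because the sources used here do not say how reads that match similar genes were treated. In the authors' deposited table of folds per UniGene cluster both have a fold above 1.

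krt5 and krt15, named after keratins of the mammalian basal layer, were lower in the mutant-labelled library. krt5 (ENSDARG00000058371, type II) had 437039 counts in the wild-type-labelled library and 227781 in the mutant-labelled library, or 2940 and 1623 CPM. It was 1.81-fold lower (1.80 to 1.82). krt15 (ENSDARG00000036840, type I) had 8549 and 3578 counts, or 57.5 and 25.5 CPM, and was 2.26-fold lower (2.17 to 2.35). krt5 therefore lay farther down than krt4, cyt1l and cyt1, and the proportion of krt5 to krt4 went from 0.0971 to 0.0766. That is a relative change of 0.788 (0.784 to 0.793). The interval is a log-scale normal approximation and covers counting error only, as for the other proportions. In which skin layer krt5 and krt15 were made was not tested. krt17 (ENSDARG00000094041), the keratin gene named after the mammalian wound keratin, had 32489 and 28623 counts, a ratio of 0.933 (0.919 to 0.948). Its log2 ratio of −0.10 turned to 0.048 when the libraries were scaled to epidermal genes other than keratins.

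The gene krt18, named after a mammalian keratin of simple epithelia, was higher in the mutant-labelled library. krt18 (ENSDARG00000018404, type I, krt18a.1 in the current name table) had 59310 counts in the wild-type-labelled library and 122212 in the mutant-labelled library, or 399 and 871 CPM. It was 2.18-fold higher (2.162 to 2.204). krt8 (ENSDARG00000058358), the type II partner of keratin 18 in mammals, had 275978 and 327779 counts, a ratio of 1.258 (1.252 to 1.265). Its log2 ratio of 0.33 turned to −0.067 when scaled to the cardiac sarcomere list. The proportion within this pair went from 4.65 krt8 counts per krt18 count to 2.68. Of the 9 genes krt18 had the highest ratio and krt15 the lowest, so their proportion by construction shifted most of all pairs. The proportion of krt18 to krt15 went from 6.94 to 34.2, a relative change of 4.92 (4.73 to 5.13). krt1-19d (ENSDARG00000023082), a type I gene to which no role is assigned here, had 4847 and 9700 counts, or 32.6 and 69.1 CPM. It was 2.12-fold higher (2.05 to 2.19), and its proportion to krt18 had a relative change with an interval that includes 1 (0.971, 0.937 to 1.007).

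The proportion of the filament types was nearly the same in both libraries although single genes differed in direction. The 6 type I genes summed to 1731724 and 1208026 counts, a ratio of 0.739 (0.737 to 0.741). The 3 type II genes summed to 5213443 and 3530799 counts, a ratio of 0.717 (0.716 to 0.718). There were 0.332 type I counts per type II count in the wild-type-labelled library and 0.342 in the mutant-labelled library, a relative change of 1.03 (1.027 to 1.033). These sums follow the surface keratins: with krt4 left out, the proportion was 2.43 and 2.17, a relative change of 0.895 (0.892 to 0.899), on the other side of 1. Most of the type I counts were those of cyt1l (1009167 and 653676) and cyt1 (617362 and 390237). The authors' deposited tables disagree on the direction of both genes, so the type I sum and its proportion rest on the Ensembl gene counts used here. Counts per length were not computed, so the proportions are of reads and not of chains.

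The wider keratin family also held genes on both sides. A further 14 rows carried a keratin name in the authors' table or in current name tables, 13 of them with at least 10 counts. Of these, 2 were higher, 2 lower and 9 neither (15.4% each way, against 6.03% and 6.66% of all genes), and the log2 ratios ran from −0.84 to 2.56. When scaled to the cardiac sarcomere list, 4 were lower and 0 higher, and their median moved from 0.084 to −0.31. Scaled to the epidermis lists, 4 were higher, adding krt18b and krt93, and 2 lower, with a median of 0.23. krt1-19e, whose promoter marks basal skin cells in zebrafish, had 325398 and 175088 counts and was 1.76-fold lower, with a ratio of 0.570 (0.567 to 0.573) beside 0.552 for krt5. krt1-c5 was also lower, with a ratio of 0.558 (0.519 to 0.5997) on 2170 and 1143 counts. krt91 had a ratio of 0.694 (0.689 to 0.699) on 212411 and 139186 counts, within the range of krt4, cyt1l and cyt1. On the other side, krt94 was higher, with 17606 and 28681 counts and a ratio of 1.73 (1.69 to 1.76), a call that the sarcomere scaling ends. krt18b, a paralogue of krt18, had 15565 and 22259 counts and a ratio of 1.51 (1.48 to 1.55), just short of the rule. The second krt18 paralogue, krt18a.2, was higher on 3 and 19 counts, a ratio of 6.71 with an interval from 1.97 to 35.4, and that call ends likewise. krt92 and krt97 had ratios of 1.08 and 1.06, with 33877 and 34641 counts for krt92 and 23856 and 23875 for krt97. Both lay below 1 when scaled to the cardiac sarcomere list, which shifts every log2 ratio by −0.40.

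Neighbouring keratin genes had unlike ratios in some rows and like ratios in others. Gene order was read from RefSeq's annotation of the assembly GRCz12tu, which is not the build of the counts, so only neighbourhood is used. krt5, krt8, krt18 and krt18a.2 follow each other there with no other coding gene between them, and the first 3 had ratios of 0.552, 1.26 and 2.18. krt1-19d and krt1-19e are also neighbours, with ratios of 2.12 and 0.570, at one end of a row that goes on with krt92, cyt1l, cyt1, krt17 and krt91. krt15 lies in a row with krt93, krt94, krt98 and krt99, in which krt94 was higher and krt15 lower. krt4 and krt18b are separated by 1 coding gene, and the proportion of krt18b to krt4 had a relative change of 2.16 (2.12 to 2.21). Like ratios stood side by side for cyt1l and cyt1 (0.686 and 0.670), for krt93 and krt94 (1.66 and 1.73), and for krt97 and krt96 (1.060 and 1.055), which follow krt222 (1.35). Of these, krt93 had only 246 and 385 counts and an interval from 1.41 to 1.95, so the rule did not call it higher as it did krt94.

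**Figure D2:**
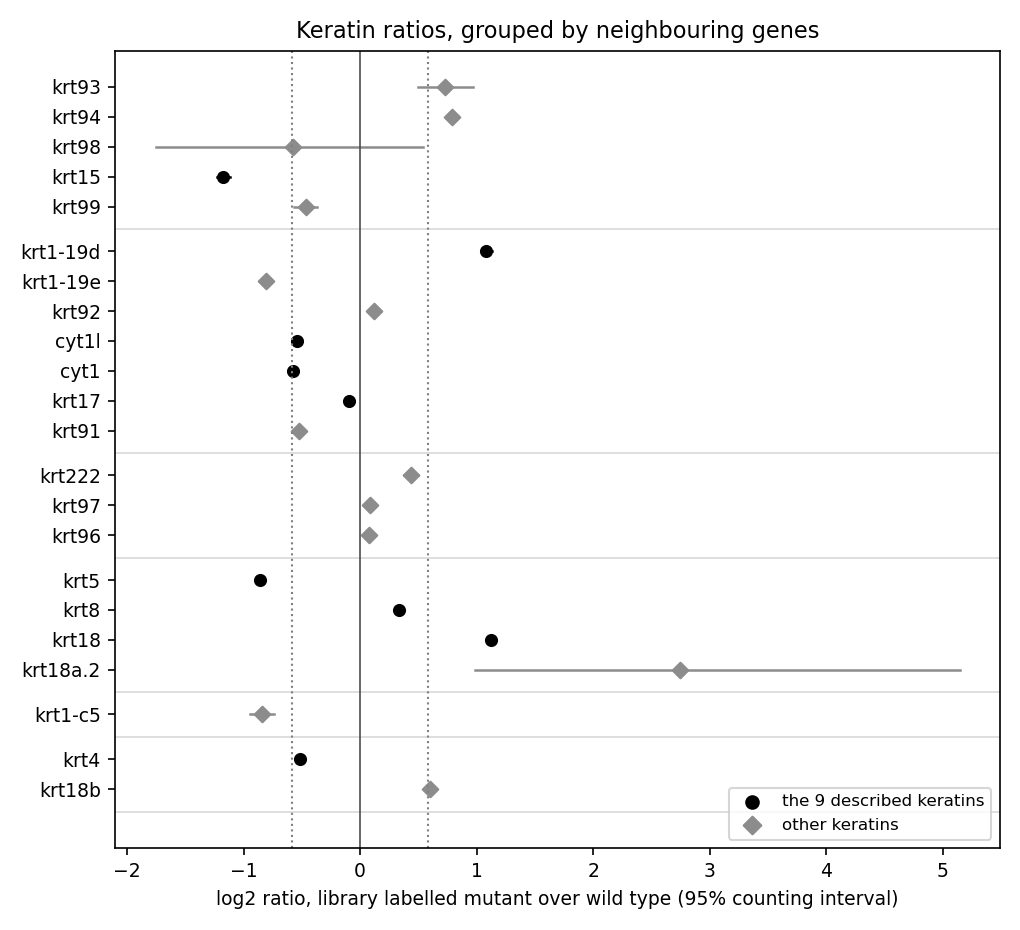
Log2 ratio of the mutant-labelled library over the wild-type-labelled library for the 22 keratin genes with at least 10 counts, with 95% counting intervals. Black circles are the 9 described keratins and grey diamonds the other 13, grey lines separate rows of neighbouring genes, and dotted lines mark 1.5-fold. In 4 rows some genes lie left and others right of 0, as with krt5 at −0.86 and krt18 at 1.13, while krt222, krt97 and krt96 all lie right of 0; the sign of krt8 depends on the scaling, as do those of krt17, krt92, krt96 and krt97.

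Other genes of the skin were set beside the keratins, since the libraries were labelled as heart. Of 24 periderm markers 22 were found and measured, and they summed to 4338 and 3884 CPM. By the rule none was higher, and the tight junction gene cldnb (21966 and 11551 counts, 1.80-fold) was lower, 4.55% against 6.66% of all genes. The sarcomere scaling gave 9 lower periderm markers, and scaling to the median of the periderm and basal lists, here the epidermis scaling, gave 1 higher (grhl3) and 1 lower. Over this list the median log2 ratio was −0.086, which turned to 0.061 when scaled to all epidermal markers, against −0.51 for the 9 keratins. The most counted of them, icn, a calcium-binding S100-type gene, had a ratio of 0.906 (0.897 to 0.915), above the 0.700 of krt4. Of 16 basal markers, 4 (25%, against 6.66% of all genes) were lower, or 7 under the sarcomere scaling, among them col17a1a (1.98-fold), a collagen of the hemidesmosome, and the transcription factor gene tfap2c (1.97-fold). The median was −0.19, and the most counted gene, epcam, had a ratio of 0.793. The basal cell regulator tp63, named after its value was seen, had a ratio of 0.860. Of the 22 periderm markers 1, cldnb, had a ratio below that of krt4. Of the 16 basal markers 2 had a ratio below that of krt5 and 0 below that of krt15. With all ratios scaled to the median of both lists, which shifts them by 0.15, krt5 and krt15 stayed lower and krt4 had a log2 ratio of −0.37.

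Desmosome and linker genes tie keratin filaments to the cell border. Of 14 measured, the plakophilin gene pkp2 was lower (0.558, 0.531 to 0.585) and none was higher, with a median of −0.21. That is 7.14% lower, near the 6.66% of all genes, and the sarcomere scaling gave 4 lower. jupa, which encodes plakoglobin, had a ratio of 1.03, and it lay below 1 when scaled to the cardiac sarcomere list. The ion-transporting and mucous cells of the skin had 4 of 12 measured markers lower (33.3%, against 6.66% of all genes) and none higher, including the ionocyte regulator gcm2 (1.85-fold) and the mucin gene muc5.1 (1.69-fold). The sarcomere scaling gave 9 lower and the epidermis scaling 1, gcm2, so the call of muc5.1 ends there. All 12 had log2 ratios below 0, with a median of −0.61 and summed levels of 327 and 241 CPM, and the most counted, atp6v1aa, had a ratio of 0.833.

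**Figure D3:**
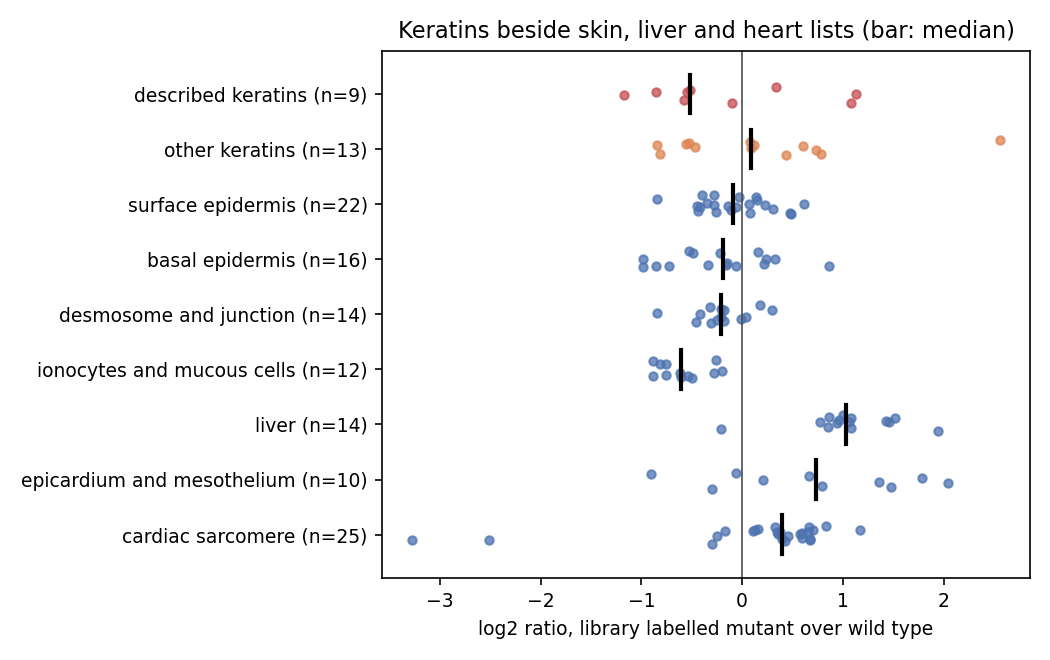
Log2 ratios of the mutant-labelled library over the wild-type-labelled library for each measured gene of the keratins and of 7 gene lists, with a black bar at each median. The 9 keratins spread from −1.17 to 1.13 with a median of −0.51, while the liver, epicardial and sarcomere medians lie at 1.03, 0.73 and 0.40; scaling to the sarcomere list moves every point by −0.40 and scaling to the epidermis lists by 0.15.

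Several genes of the liver and plasma protein list and of the epicardial list were higher as well. Of 16 liver and plasma protein genes 14 were found. Of these 11 (78.6%, against 6.03% of all genes) were higher, or 7 under the sarcomere scaling, and none lower, with a median of 1.03 and summed levels of 2268 and 5372 CPM. They included cp, for ceruloplasmin (3.84-fold), fgb, for a fibrinogen chain (2.87-fold), and apobb, the most counted (2.74-fold). The other 3 met neither condition and had few counts: the hepatocyte marker fabp10a 8 and 14, ttr 11 and 18, and hpx 65 and 53. These 3 were named after their values were seen, and no matched gene of this list was at 0. Which tissue the RNA of the higher plasma protein genes came from was not tested. Of 10 genes listed as epicardial and mesothelial, 6 (60%, against 6.03% of all genes) were higher, led by wt1b (4.13-fold) and wt1a (3.46-fold). The 6 include the potassium channel gene kcnh6a (1.59-fold), and the listed genes need not be particular to these tissues. nell2b was lower (10%, against 6.66% of all genes). The sarcomere scaling gave 4 higher and 2 lower. The summed levels of all 10 were 520 and 791 CPM, podxl was the most counted with a ratio of 1.73, and the median was 0.73. In mammals, hepatocytes and mesothelium both contain keratins 8 and 18. Of 25 measured sarcomere genes 7 (28%, against 6.03% of all genes) were higher, among them myh6 (2.26-fold). tcap and myoz2a were lower (8%, near the 6.66% of all genes). The epidermis scaling gave 11 higher and 2 lower sarcomere genes. Scaling to the sarcomere list itself, which sets its median to 0, gave 1 higher and 4 lower. The sarcomere sums were 12629 and 17502 CPM, with a median of 0.40, and the most counted gene, vmhc, had a ratio of 1.49. Of 10 measured notochord and hatching gland genes noto (3.07-fold) and cd63 were higher (20%, against 6.03% of all genes). In the same list 3 were lower (30%, against 6.66%), including ntla and col8a1a. That median of 0.066 turned to −0.33 under the sarcomere scaling. The summed levels were 6807 and 6478 CPM, and the most counted gene was he1a with a ratio of 0.945. Whether RNA from any of these tissues had a part in the keratin ratios was not tested.

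The authors' own tables were compared for the same genes. In the authors' deposited table of Ensembl genes, made with DESeq, the folds of the 9 keratins ran from 0.442 for krt15 to 2.18 for krt18. The smallest adjusted p in that deposited table among the 9 was 0.154, for krt15, followed by 0.175 for krt18, and none was below 0.05, against 442 of all listed genes; with 1 library per genotype these values rest on no replicate. The authors' deposited table of UniGene clusters names 7 of the 9 genes. Its first line speaks of the mutant compared with the wild type, but its fold column is headed OE over CON, so the direction rests on that line. Its folds were 2.22 for krt18, 2.13 for krt1-19d, 1.29 for krt8, 0.69 for krt4 and 0.44 for krt15, close to those of the other deposited table. For the near relatives cyt1 and cyt1l the authors' deposited tables disagree in direction: the UniGene folds were 1.65 and 1.45 and the Ensembl folds 0.667 and 0.684. For krt92, which lies next to cyt1l, the authors' deposited tables gave 1.78 and 1.08. krt94 (1.70 and 1.72), krt91 (0.75 and 0.692) and krt1-19e (0.57 and 0.568) were alike in both deposited tables. The direction of cyt1 and cyt1l hence rests on the table used, and the cause was not tested.

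**Figure D4:**
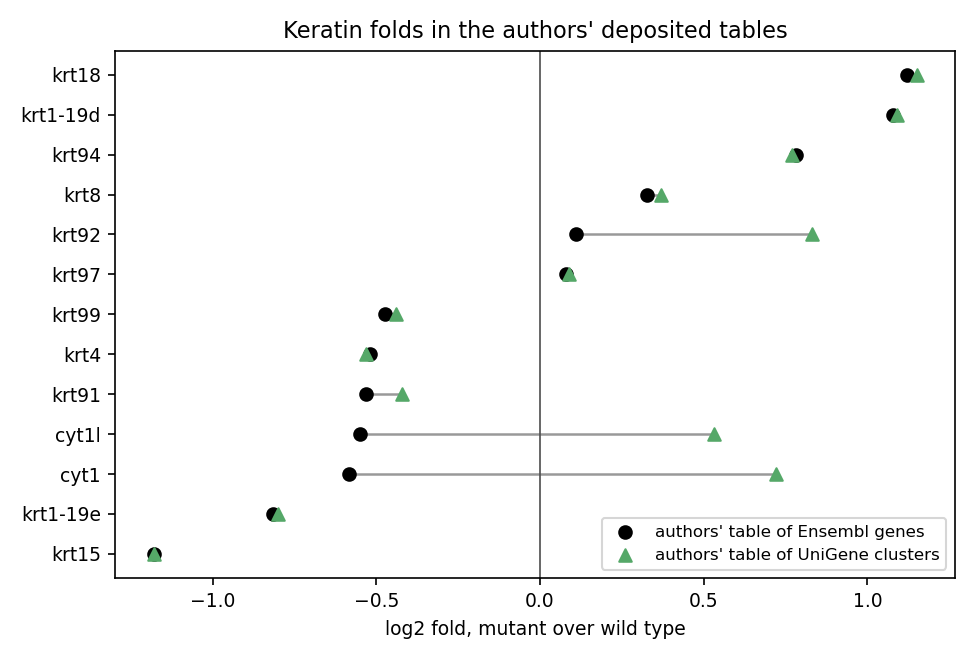
Log2 folds, mutant over wild type as the tables describe them, of 13 keratin genes in the authors' deposited table of Ensembl genes (circles) and in that of UniGene clusters, also the authors' deposited table (triangles), 1 row per gene. The symbols nearly coincide for most genes, while cyt1 and cyt1l lie left of 0 in the first table and right of 0, at 0.72 and 0.53, in the second, and krt92 lies at 0.11 and 0.83.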

How the data were processed

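Total RNA was purified on RNeasy columns and sequenced from Illumina TruSeq libraries, per the labels' protocols. Alignment with TopHat to Zv9 and the use of DESeq are named, without versions, in the submitters' processing notes; the counting tool, the annotation and the treatment of strand and of multiply matching reads are not stated there. The authors deposited raw counts per gene, and their line that names no gene held 9.21% and 9.17% of counts in the wild-type-labelled and mutant-labelled library and was left out. Per the file headers, the deposited Ensembl comparison holds a fold (ratio) with its log2, a p-value and the same p-value adjusted, and the deposited UniGene comparison holds a fold with its log2. Their 6 columns of per-sample values match no label and were not used.

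Library sizes were scaled by TMM over genes with at least 10 counts (edgeR 4.0.16, R 4.3.3), giving 148672670 and 140343503. Ratios have exact 95% Clopper-Pearson intervals, and log2 ratios used 0.5 added to each count. The calculation was run on simulated counts that held counting error only, with the library sizes given. That run checks the code and cannot show how hearts or dissections vary. Alternatives were DESeq2 1.42.0 size factors, other scalings, and other fold and count limits.

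The members and lists were chosen with earlier results of these data known. List entries were looked up among the authors' gene names and then in a current table, which left 13 of 161 unmatched. Named genes were the 9 keratins; of the other keratins the 6 most counted and up to 3 higher and 3 lower; of each list the most counted and up to 2 higher and 2 lower by interval bound; and kctd10. Further names were chosen after their values were seen, and 1 gene the rule names is not reported here. With values from 2 libraries no gene was named for a like pattern. Protein identities and counts per coding length were planned but not run, and no sequence is printed.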

Additional observations from a re-analysis of the deposited data

How the results depend on the processing

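The sets of 2 higher and 2 lower keratins were unchanged under the DESeq2, library-total, upper-quartile and other TMM scalings (TMM over all listed genes was chosen after seeing the data), the epidermis scaling, both count minimums and the authors' folds. Scaling to the sarcomere list, which shifts the median of all genes by −0.40, gave 5 lower keratins, adding krt4, cyt1 and cyt1l, a keratin median of −0.91, and 666 higher and 4595 lower genes. The share of higher among called genes was then 12.7%, against 47.5% as reported and 64.7% under the epidermis scaling. A looser fold limit than 1.5 gave 3 higher keratins, adding krt8, and 5 lower, 9 other keratins called, 76 called list genes, and 2894 higher and 3067 lower genes. The 2-fold limit gave 1 lower keratin, 0 other keratins, 19 list genes, and 635 higher and 677 lower genes, against 4 other keratins, 50 list genes, 1447 and 1600 as reported. The authors' folds, which have no interval, passed 1.5-fold for 7 other keratins and for 2955 higher and 3260 lower genes. Without krt4 the keratin shares were 1.63% and 1.27% and the type I to type II proportions 2.43 and 2.17. The mean of the 9 log2 ratios was −0.14. No paired analysis was possible because each genotype has 1 library. Depth limits krt18a.2, with 3 and 19 counts, krt98, with 19 and 12, and krt95, with 2 and 1, whose intervals are the widest of the keratins.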

Other observations

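Intermediate filament genes other than keratins also moved in both directions. Of 20 measured, 3 (15%, against 6.03% of all genes) were higher. Among them were synm, which encodes the muscle filament protein synemin (3.26-fold, 3.13 to 3.41), and bfsp1, of the lens filament (2.08-fold, 1.998 to 2.17). The 4 lower genes (20%, against 6.66% of all genes) are neuronal and included neflb (480 and 176 counts, a ratio of 0.388) and prph (0.497). The median log2 ratio was −0.18, and the most counted, the lamin gene lmnb1, had a ratio of 0.895.

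The authors' deposited UniGene table also holds 5 clusters that its titles call keratin-like without naming a keratin gene. Their deposited folds were 2.42 for a cluster similar to keratin 8, 1.45 and 1.08 for clusters similar to keratin 4, 0.82 for one titled keratin alpha-like and 0.65 for one similar to keratin 5.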
